A study of Homo sapiens with 6 samples.

Results

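Within each of 2047 human genes, the spread of 40S footprints over the leader, the start codon area and the coding sequence was compared between 40S subunits pulled down through eIF3b and unselected 40S subunits. The genes are those with at least 50 footprints in each library, summed over 5 transcript areas, out of 9675 genes in the table. They hold 90.5% of the 947733 footprints of the eIF3b-bound library and 90.4% of the 834172 footprints of the unselected library. Both libraries come from translation complex profiling in HEK293T cells, a human embryonic kidney line. In this assay formaldehyde fixes complexes on the mRNA, RNase I trims the RNA they do not cover, and the protected pieces are sequenced. For both libraries the cells had grown for 48 h and formaldehyde was applied at 0.3% for 5 min. One library, called eIF3b-bound below, had a further pull-down of its 40S fraction with an antibody against eIF3b, and the other is the first of 2 unselected 40S libraries, called 40S 1. Only read 1 was used from both, and no label states whether separate cultures were used.

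eIF3 is the largest of the initiation factors and binds the small ribosomal subunit before it meets an mRNA. The loaded subunit scans the leader, which is the 5′ UTR, in the 3′ direction until it recognises a start codon, and the large subunit then joins as most factors leave. In this simple scheme a 40S footprint in a leader marks a scanning or recruited subunit, and one over the start codon a subunit at start recognition. A footprint in a coding sequence lies past that step. The scheme leaves out upstream open reading frames and mitochondrial ribosomes, and what single footprints mark was not tested.

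Of HEK293T-expressed markers 3 of 7 were in the table, with 497 footprints in the eIF3b-bound library, against 462 in 40S 1. Markers of other cell types summed to 2 footprints in eIF3b-bound against 1 in 40S 1 over the 3 of 10 that were in the table. The median gene had 181 footprints in the eIF3b-bound library, against 140 in 40S 1. A share within 1 gene does not depend on library depth or on the level of the mRNA, so the 2 libraries were compared by shares of counts, with no scaling to area length. With 1 library on each side there was no replicate check, no difference was tested, and all 95% intervals cover counting error only. The genes nearest the limit inside it were ANXA1, with 52 footprints in the eIF3b-bound library, against 50 in 40S 1, and ALDH1B1, with 94 in eIF3b-bound against 50 in 40S 1. Just outside lay ALG5, with 49 in eIF3b-bound against 69 in 40S 1, and ARL6IP6, with 49 against 73.

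The first balance is the start share, the percentage of leader plus start area footprints that lay at the start codon. It was lower on eIF3b-bound subunits in most genes. The median gene had 18.1% in the eIF3b-bound library, against 31.5% in 40S 1, over the 1235 genes with at least 20 such footprints in each library. The median of the differences was -8.18 percentage points. The difference was expressed as the log2 ratio of the odds in the eIF3b-bound library over the odds in 40S 1, with 0.5 added to each count. The median log2 odds ratio was -1.11 over the 1159 genes in which neither area was empty in both libraries, with quartiles of -1.95 and -0.29. In 53.1% of these genes, 615 in number, the odds were at least 2-fold lower on eIF3b-bound subunits, and in 6.21%, 72 genes, they were at least 2-fold higher. The counting interval lay wholly below 0 in 50% of the genes and wholly above 0 in 1.81%. All footprints of these areas together gave 27% in the eIF3b-bound library (exact Clopper-Pearson interval 26.9 to 27.1%), against 44.9% in 40S 1 (44.6 to 45.2%).

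The second balance is the CDS share, the percentage of start area plus coding sequence footprints that lay in the coding sequence. It too was lower on eIF3b-bound subunits in most genes. The median gene had 54.2% in the eIF3b-bound library, against 80.6% in 40S 1, over 1566 genes, and the median difference was -21.3 percentage points. The median log2 odds ratio was -1.72 over 1523 genes, with quartiles of -2.81 and -0.79. The odds were at least 2-fold lower in 70.7% of the genes, 1077 in number, and at least 2-fold higher in 5.25%, which is 80 genes. The counting interval lay wholly below 0 in 65.5% of them and wholly above 0 in 2.1%. Pooled footprints gave 46% in the eIF3b-bound library (45.8 to 46.2%), against 77.4% in 40S 1 (77.2 to 77.5%). The pools hold 296148 footprints in the eIF3b-bound library, against 295151 in 40S 1. They include 7 mitochondrially encoded genes, which summed to 3258 footprints in eIF3b-bound against 72609 in 40S 1. Their median CDS share in 40S 1 was 99.96%, so they raise the pooled 40S 1 percentage. The median log2 odds ratio over genes was also -1.72 without them and without families with near-identical copies. Both balances contain the start area counts, so they are not independent of each other, and 1060 genes were measured for both.

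**Figure D1:**
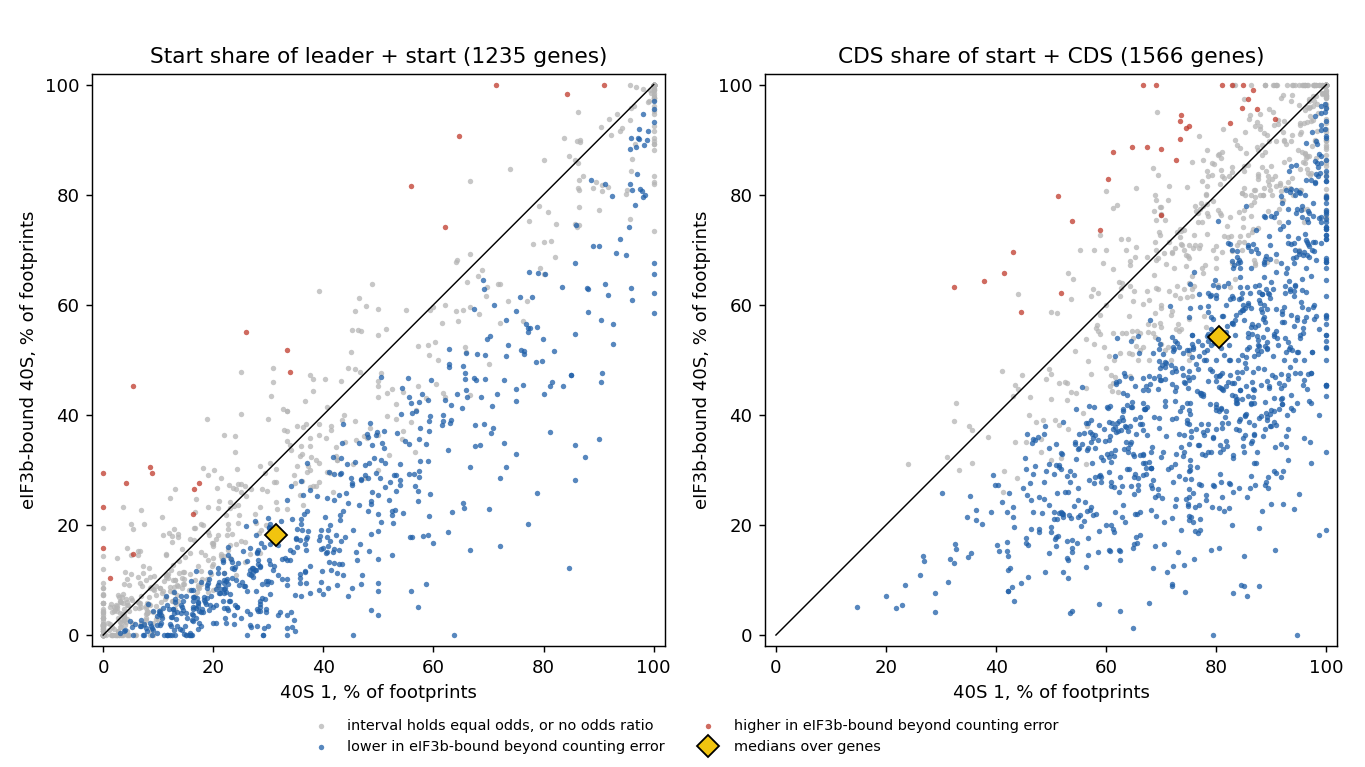
Each point is 1 gene, with its percentage in 40S 1 on the horizontal axis and in the eIF3b-bound 40S library on the vertical axis, for the start share (left, 1235 genes) and the CDS share (right, 1566 genes). Most points lie below the line of equality, and the diamonds mark the medians of 18.1% against 31.5% and of 54.2% against 80.6%.

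The lower start share concerns the leader and the start area alone. When the coding sequence was added to the denominator, the start area's median log2 odds ratio was 0.33, with 602 genes at least 2-fold higher and 353 at least 2-fold lower on eIF3b-bound subunits. More genes enter with this larger denominator, so these counts are not comparable with those of the start share. Not every gene could be measured. For the start share 623 genes had under 20 leader plus start footprints in 40S 1 only, 6 in the eIF3b-bound library only and 183 in both. For the CDS share 97 were low in 40S 1 only, 205 in the eIF3b-bound library only and 179 in both. Neither balance could be measured in 306 genes, and 190 genes had no leader footprint in either library.

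Other pairs of areas were compared in the same way. The coding sequence against the leader differed most, with a median share of 23.6% in the eIF3b-bound library, against 72.5% in 40S 1 over 1882 genes, and odds at least 2-fold lower in 90.7% of the 1725 genes with an odds ratio and 2-fold higher in 1.74%. The counting interval lay below 0 in 85.8% and above 0 in 0.522% of them. The 3′ UTR against the coding sequence split more evenly, at 42% in eIF3b-bound against 51.3% in 40S 1, with odds at least 2-fold lower in 42.4% of 1802 genes and at least 2-fold higher in 18.6%. Its counting interval lay below 0 in 40.8% and above 0 in 17.4%. Stop codon areas held few footprints. Their odds against the coding sequence were at least 2-fold lower in 62.3% and higher in 11.8% of 936 genes, while the counting interval lay below 0 in 17.1% and above 0 in 3.63%. In the 1026 genes measured for all of the start, CDS and 3′ UTR balances, the median log2 odds ratios were -1.08, -1.65 and -0.49.

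**Figure D2:**
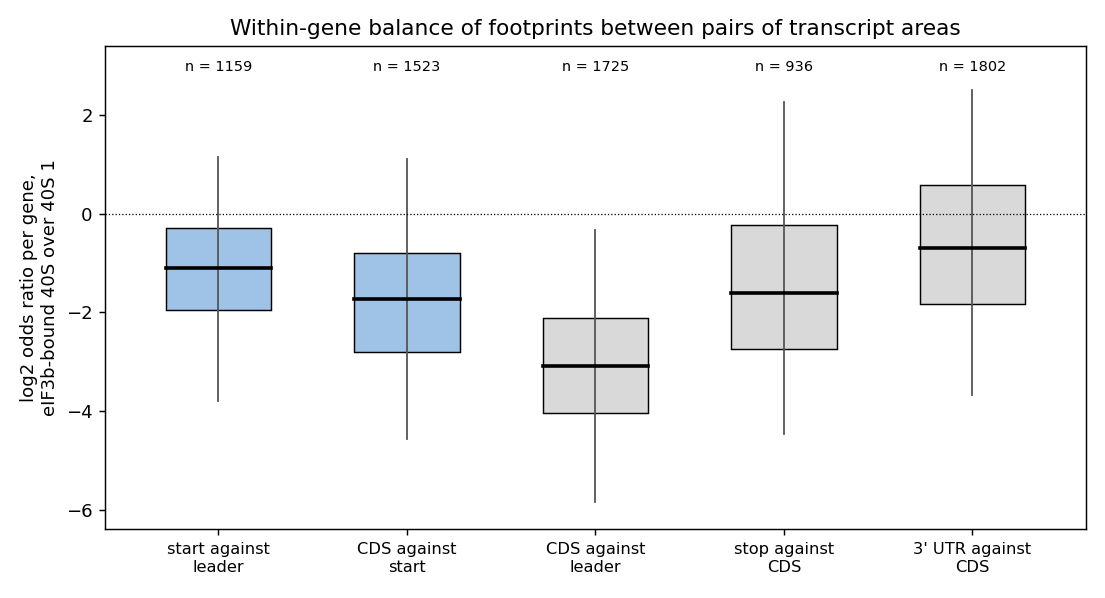
Boxes give the median and quartiles, and lines the 5th to 95th percentile over genes, of the log2 odds ratio of eIF3b-bound 40S over 40S 1 for 5 pairs of transcript areas. All 5 medians lie below 0, with the coding sequence against the leader lowest at -3.09.

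The share of genes beyond counting error differed with depth, while the medians differed less. Genes were divided into 4 groups of equal size by the smaller of their denominators in the 2 libraries. In the start balance the interval lay below 0 in 30% of the shallowest group and 75.8% of the deepest, while the medians were -0.89 and -1.13. In the CDS balance these percentages were 49.3% in the shallowest group and 85.7% in the deepest, and the medians were -2.02 and -1.67. The half-width of a gene's interval had a median of 1.29 on the log2 scale for the start balance and 1.21 for the CDS balance, so a 2-fold difference in a typical gene was within counting error.

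The other unselected library, 40S 2, had no counts by area here. Its 5′ ends around start codons gave the spread between unselected libraries. The 5′ ends from -14 to -12 nt made up 9.87% of those from -80 to -12 nt in 40S 1 and 11.4% in 40S 2, a log2 odds ratio of -0.24. Ends from 1 to 30 nt made up 75.9% of start plus downstream ends in 40S 1 and 73.1% in 40S 2, a log2 odds ratio of 0.21. These windows pool all genes and are not the areas of the count table. Over a start window of -17 to -9 nt the values between 40S 1 and 40S 2 were 0.01 and -0.00. The pooled area values between the eIF3b-bound library and 40S 1 were -1.14 and -2.0, the latter with mitochondrially encoded genes included. The spread between unselected libraries in the areas themselves was not measured, so the sizes are not directly comparable.

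The 8 genes with the lowest start shares relative to 40S 1 differed widely in level, from leaders that held nearly all footprints to start areas that did. They are ranked by the interval bound nearest 0 among genes with at least 100 footprints in each denominator. UBE2D2, a ubiquitin-conjugating enzyme at chr5:139526240-139628434 (RefSeq, GRCh38.p14), had 1302 leader and 15 start footprints in the eIF3b-bound library, against 173 and 28 in 40S 1. Its start share was 1.14% on eIF3b-bound subunits (0.639 to 1.87%) and 13.9% in 40S 1 (9.46 to 19.5%), a log2 odds ratio of -3.79 (-4.71 to -2.87). The difference thus came with many more leader and fewer start footprints. RPS28, a protein of the small ribosomal subunit at chr19:8321496-8323340, had 396 leader and 881 start footprints in the eIF3b-bound library, against 24 and 445 in 40S 1. Its start share was 69% in the eIF3b-bound library, against 94.9% in 40S 1, with a log2 odds ratio of -3.03 (-3.64 to -2.42). RPS28 kept most of its leader plus start footprints at the start area in both libraries, and it overlaps KANK3 in the annotation.

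MYBL2, a transcription factor of the cell cycle, had a start share of 3.17% in the eIF3b-bound library, against 22.1% in 40S 1. EIF5, the factor that makes eIF2 hydrolyse GTP at start recognition, had 915 leader and 6 start footprints in the eIF3b-bound library, against 172 and 15 in 40S 1. Its share was 0.652% on eIF3b-bound subunits (0.239 to 1.41%) and 8.02% in 40S 1 (4.56 to 12.9%). EIF5 overlaps SNORA28, a small nucleolar RNA gene, and no source used here says whether counting used strand. The histone gene H2BC8 had 80.7% in eIF3b-bound against 97.9% in 40S 1. PARK7, a redox-sensing protein linked to Parkinson disease, had 17.8% in eIF3b-bound against 55.7% in 40S 1. MARCKSL1, an actin-binding membrane protein, had 11.3% in eIF3b-bound against 42.4% in 40S 1, and TCEAL9 had 1.71% in eIF3b-bound against 12.4% in 40S 1. Of all 8 intervals the bound nearest 0 was -1.96 on the log2 scale, in TCEAL9.

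Few deep genes went the other way. Of the 295 genes with at least 100 footprints in each denominator and an odds ratio, 168 were at least 2-fold lower and 6 at least 2-fold higher. WDR74, a nucleolar protein of ribosome assembly at chr11:62832905-62841809, stood highest. It had 227 leader and 26 start footprints in the eIF3b-bound library, against 943 and 12 in 40S 1. Its start share was 10.3% on eIF3b-bound subunits (6.82 to 14.7%) and 1.26% in 40S 1 (0.651 to 2.18%), a log2 odds ratio of 3.14 (2.14 to 4.13). The leader held most of its counts in both libraries. The annotation places RNU2-2, a small nuclear RNA gene, within WDR74, and the part of its reads in these leader counts was not tested.

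For ENSG00000205246, MRPS15 and RCC1, the next 3 in rank, the odds were under 2-fold higher. MRPS15, a protein of the mitochondrial small ribosomal subunit, had 27.6% (23.1 to 32.3%) in the eIF3b-bound library, against 17.4% (11.1 to 25.3%) in 40S 1, a log2 odds ratio of 0.83. RCC1, the exchange factor of the GTPase Ran, had 26.6% in eIF3b-bound against 16.5% in 40S 1, and it overlaps SNHG3 and the small nucleolar RNA genes SNORA73A and SNORA73B. ENSG00000205246, which has no symbol in the table used, had 74.2% in eIF3b-bound against 62% in 40S 1. The intervals of S100A13, HNRNPA3 and H2BC5, the last 3 of the 8, included 0.

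Among the 8 genes with the lowest CDS balance, SFPQ, HNRNPD, HNRNPF, YBX1 and HNRNPDL encode RNA-binding proteins, a grouping made after their values were seen. The share of such genes among all measured genes was not counted, so the grouping is not a result about them. SFPQ, a splicing factor at chr1:35176380-35193145, had 118 start and 107 coding footprints in the eIF3b-bound library, against 15 and 292 in 40S 1. Its CDS share was 47.6% on eIF3b-bound subunits (40.9 to 54.3%) and 95.1% in 40S 1 (92.1 to 97.2%), a log2 odds ratio of -4.38 (-5.21 to -3.55). On eIF3b-bound subunits the start area and the coding sequence held equal numbers of footprints within counting error, while the coding sequence held more in 40S 1.

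HNRNPD, which binds AU-rich elements, had a CDS share of 46.4% in the eIF3b-bound library, against 93% in 40S 1, while its leader held 2103 footprints in the eIF3b-bound library, against 261 in 40S 1. Its relative HNRNPDL had 40.1% in eIF3b-bound against 89.8% in 40S 1, and the splicing regulator HNRNPF had 26.7% in eIF3b-bound against 86.2% in 40S 1. YBX1, a cold-shock domain protein that coats mRNA, had 39.8% (35.1 to 44.6%) in the eIF3b-bound library, against 88.2% (86.1 to 90.1%) in 40S 1. NUDC, a nuclear migration protein and cochaperone, had 27.7% in eIF3b-bound against 89% in 40S 1, and it overlaps GPATCH3 and NR0B2. ACTB, beta-actin, had the most footprints of the 8, with a CDS share of 16.6% (15 to 18.4%) in the eIF3b-bound library, against 65.6% (63 to 68%) in 40S 1. Reads that match both ACTB and its close paralog ACTG1 may have been split between them.

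Of the 432 deep genes with a CDS odds ratio, 334 were at least 2-fold lower on eIF3b-bound subunits and 6 at least 2-fold higher. H2BC7, a histone H2B gene, had 13 start and 281 coding footprints in the eIF3b-bound library, against 24 and 166 in 40S 1, with CDS shares of 95.6% in eIF3b-bound against 87.4% in 40S 1. POLR2L, a small subunit shared by the RNA polymerases, had 487 start and 692 coding footprints in the eIF3b-bound library, against 245 and 197 in 40S 1. The CDS share of POLR2L was 58.7% on eIF3b-bound subunits (55.8 to 61.5%) and 44.6% in 40S 1 (39.9 to 49.3%), a log2 odds ratio of 0.82 (0.50 to 1.14). POLR2L had no leader footprint in either library. NPM3, a nucleolar chaperone of the nucleoplasmin family, had 62.1% in eIF3b-bound against 51.8% in 40S 1, also with no leader footprint. C19orf53 had 76.4% in eIF3b-bound against 70% in 40S 1, a log2 odds ratio of 0.48 (0.02 to 0.93). The intervals of MT-ATP6, TRAPPC1 and CENPV included 0.

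**Figure D3:**
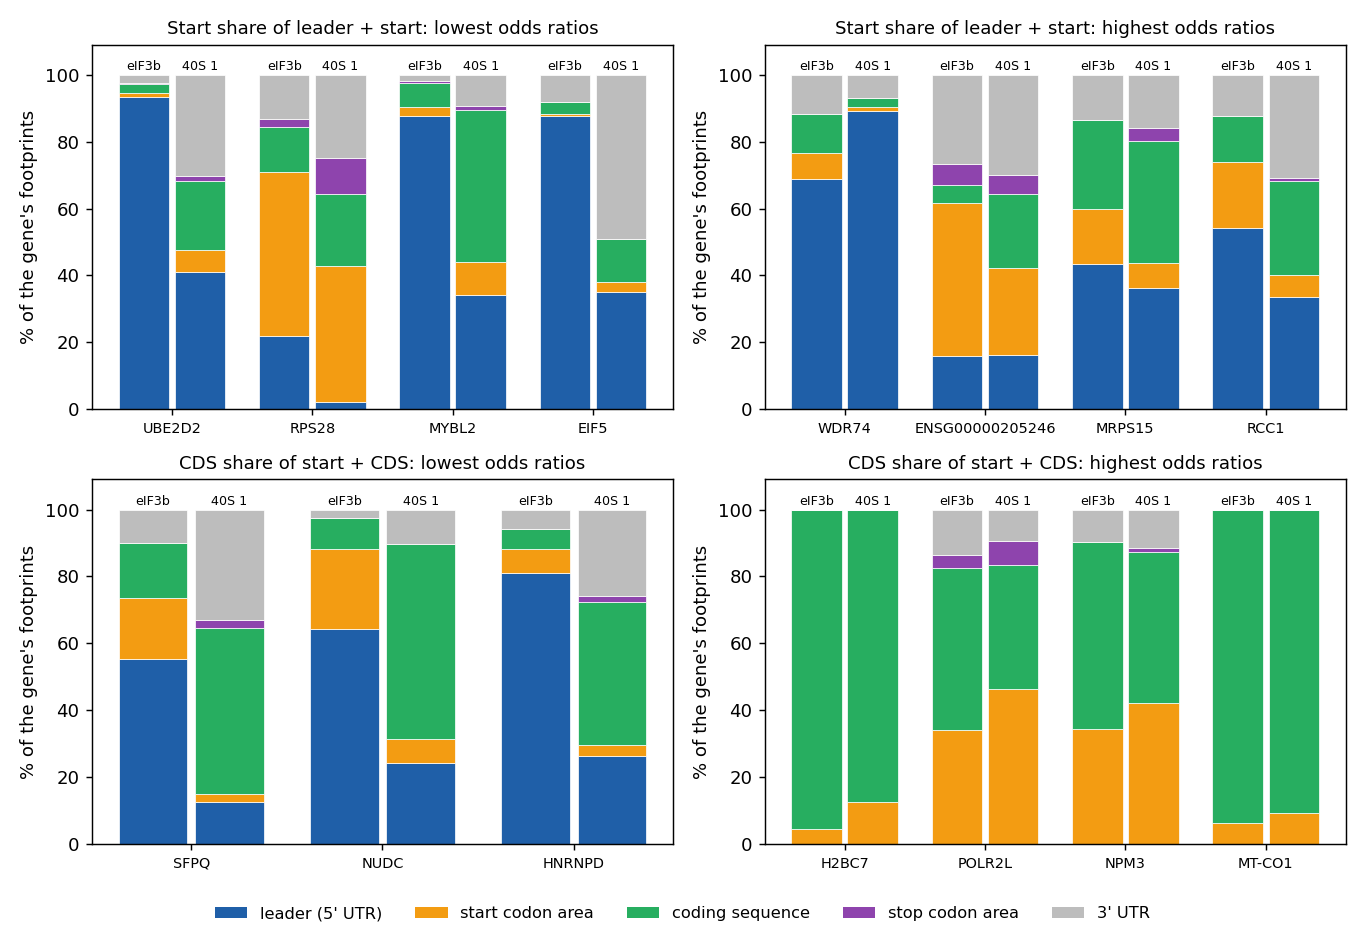
Stacked bars give the percentage of each gene's footprints in its 5 areas, with the eIF3b-bound 40S library left of 40S 1, for the 4 lowest and 4 highest genes of the start balance, and for 3 of the 4 lowest and the 4 highest of the CDS balance. Leaders hold 55% or more of the eIF3b-bound footprints of the lowest CDS genes SFPQ, NUDC and HNRNPD, and none of those of H2BC7, POLR2L, NPM3 and MT-CO1.

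The start regions below belong to genes at the ends of both balances and hold an ATG close to the first transcribed base. The first 50 transcribed bases in RefSeq (GRCh38.p14) were searched on the gene's strand for ATG followed in frame by no TAA, TAG or TGA up to base 50, called an open ATG. It was present in 4 of the 6 matched genes at the high end of the CDS balance and in 1 of 5 at the low end, against 29.8% of all matched genes measured for that balance and 34.2% of 27305 RefSeq starts. In the start balance it was present in 2 of 6 at the high end and 2 of 8 at the low end, against 24.2% of matched genes. Not every ranked gene with an open ATG is shown, and from the CDS balance only genes of the high end are. HNRNPF, at the low end of the CDS balance, has its open ATG after 1 base. HNRNPA3, at the high end of the start balance, has it after 6 bases. In H2BC7 and H2BC8 it follows 43 and 45 bases. The sequences run 5′ to 3′ with the open ATG in capitals.
POLR2L: ggacgcgccgccgccATGatcatccctgta
C19orf53: gctgcgtgccggaccATGgcgcaggggcag
CENPV: caggctgcgggagccATGcggcgatcgagg
RPS28: cgccgcgccgccatcATGgacaccagccgt
WDR74: cctccaggctttgtcATGgcggctgctgct
The ATG follows 21 bases in POLR2L (chr11:842494-842523, minus strand), 22 in C19orf53 (chr19:13774463-13774492, plus strand) and 33 in CENPV (chr17:16353422-16353451, minus strand). POLR2L and CENPV had no leader footprint in either library, and C19orf53 had 7 in the eIF3b-bound library, against 3 in 40S 1. The ATG follows 35 bases in RPS28 (chr19:8321516-8321545, plus strand) and 20 in WDR74 (chr11:62839556-62839585, minus strand), the lowest but one and the highest of the start balance. The WDR74 start used, at 62839590 on the minus strand, lies inside a gene span that reaches 62841809. WDR74 held 943 leader footprints in 40S 1, so the leader that was counted may not be the region shown. The transcript start used in counting is not stated in any source used here. Whether these regions are the leaders that were counted was thus not tested, and no reading of either balance is drawn from them. A match describes these letters and is not evidence of a site.

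Over all matched genes, 83.1% of those measured for the CDS balance, genes with an open ATG had a smaller median difference. The same limit holds for these classes, as the RefSeq start may not be the start used in counting. Genes with an open ATG had a median CDS share of 58% in the eIF3b-bound library, against 79.2% in 40S 1, with odds at least 2-fold lower in 62.2% of 376 genes and a median log2 odds ratio of -1.29. Genes with no ATG in the first 50 bases had 52.2% in eIF3b-bound against 80.7% in 40S 1, with odds at least 2-fold lower in 73.5% of 846 genes and a median of -1.88. Genes with an open ATG also had more footprints, with a median of 96 start plus coding footprints in the eIF3b-bound library, against 73 in 40S 1, while genes with no ATG had 71 in eIF3b-bound against 67 in 40S 1, and the part of depth in this was not tested. The few genes whose ATGs were all closed by a stop codon had a median CDS log2 odds ratio of -1.75 over 51 genes. In the start balance the median log2 odds ratio was -1.12 with an open ATG, -0.57 over 42 genes with closed ATGs and -1.13 without an ATG. The classes with an open ATG and with none thus had near-equal medians, although the shares themselves stood far apart. The median start share was 49.7% in the eIF3b-bound library, against 69.1% in 40S 1 with an open ATG, and 15.1% in eIF3b-bound against 28.1% in 40S 1 without an ATG. G+C content of the same 50 bases had a Pearson correlation across genes of 0.01 with either log2 odds ratio. Genes are not replicates, and all of them share the same 2 libraries.

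**Figure D4:**
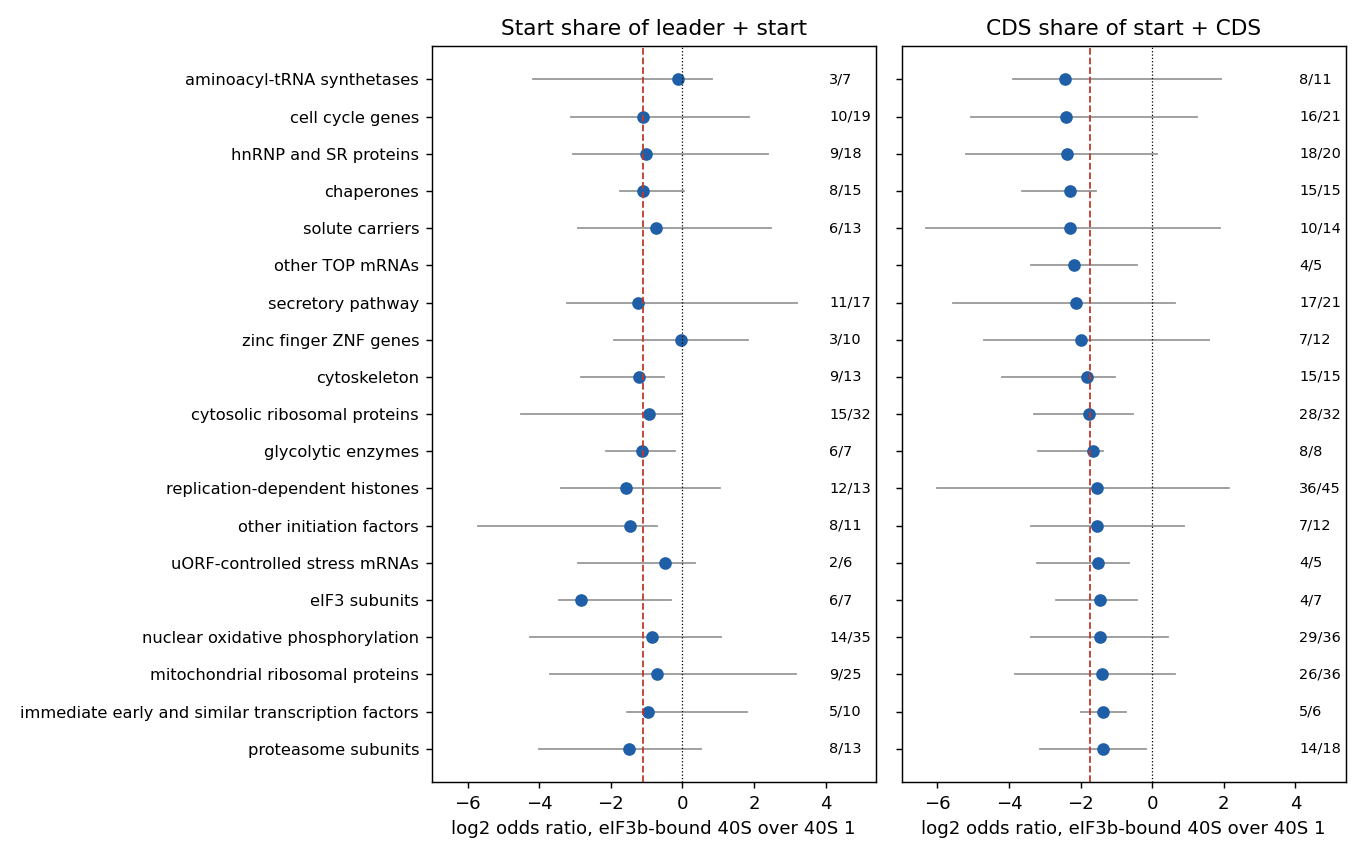
Points give the median, and lines the range, of the log2 odds ratio of eIF3b-bound 40S over 40S 1 in each gene list with at least 5 genes that have an odds ratio in that balance, and the numbers give genes at least 2-fold lower of genes with an odds ratio. Dashed red lines mark the medians over all measured genes, -1.11 and -1.72, and the list medians run from -2.84 to -0.03 on the left and from -2.44 to -1.37 on the right. The -0.03 is that of ZNF genes, whose median start share in 40S 1 was 0%.

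Lists of genes are described beside the 53.1% of all genes with start odds, and the 70.7% with CDS odds, at least 2-fold lower on eIF3b-bound subunits, with 6.21% and 5.25% at least 2-fold higher. Nothing here marks a list as particular, since no list was tested. Genes at least 2-fold higher were often within counting error, and some at least 2-fold lower were too. In start odds 11 secretory pathway genes were at least 2-fold lower, while 8 intervals lay below 0. Among immediate early and similar transcription factors these were 5 and 3. Cytosolic ribosomal proteins went the other way, with 15 at least 2-fold lower and 25 intervals below 0. No start interval lay above 0 among hnRNP and SR, cell cycle, solute carrier, immediate early, ZNF or histone genes. It did in 1 secretory pathway gene, 1 oxidative phosphorylation gene and 3 mitochondrial ribosomal proteins. No CDS interval lay above 0 in cell cycle, solute carrier or ZNF genes, and 1 did in histones and 1 in aminoacyl-tRNA synthetases. Among 32 cytosolic ribosomal proteins, the start odds were at least 2-fold lower in 15 and the CDS odds in 28, and none was 2-fold higher. Their median log2 odds ratios were -0.92 and -1.75, and all 32 lay below 0 in both balances. RPS12, a protein of the small subunit, had a start share of 32.8% in the eIF3b-bound library, against 36.1% in 40S 1, with an interval that included 0 (-0.42 to 0.01). RPLP2, a stalk protein of the large subunit, had 31.3% in eIF3b-bound against 37% in 40S 1, and RPL13 had 38.4% in eIF3b-bound against 43.6% in 40S 1. RPL8, of the large subunit, had a CDS share of 33.8% (32 to 35.6%) in the eIF3b-bound library, against 63.3% (60.9 to 65.6%) in 40S 1. RPS18 had 27.3% in eIF3b-bound against 39.9% in 40S 1. Many ribosomal proteins have pseudogenes, which can take some of their reads. Further mRNAs with a terminal oligopyrimidine tract, a shared regulatory leader start, were at least 2-fold lower in start odds in 3 of 4 cases and in CDS odds in 4 of 5. EEF1B2, an exchange factor of elongation, had a CDS share of 15.5% in the eIF3b-bound library, against 62.2% in 40S 1.

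Of 7 genes of eIF3 subunits, 6 had start odds at least 2-fold lower, with a median log2 odds ratio of -2.84, and 4 had CDS odds at least 2-fold lower, with a median of -1.46. EIF3I had 51 leader and 199 start footprints in the eIF3b-bound library, against 2 and 105 in 40S 1, so its start share was 79.6% (74.1 to 84.4%) in eIF3b-bound against 98.1% (93.4 to 99.8%) in 40S 1. EIF3M had a start share of 56% in the eIF3b-bound library, against 78.7% in 40S 1. EIF3C, whose reads may be shared with a near-identical copy, had 13% in eIF3b-bound against 24.6% in 40S 1. EIF3B, which encodes the subunit used for the pull-down, had a start log2 odds ratio of -0.33, the nearest to 0 of the 7. Its CDS share was 78% in the eIF3b-bound library (73 to 82.4%), against 85.3% in 40S 1 (79.4 to 90.1%), from 318 footprints in eIF3b-bound against 184 in 40S 1. Small counts limit the comparison among the subunits.

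Other initiation factors were at least 2-fold lower in 8 of 11 genes for the start odds and in 7 of 12 for the CDS odds. EIF5A, which acts in elongation and termination despite its name, had a start share of 13.6% (12.7 to 14.5%) in the eIF3b-bound library, against 30.2% (27.1 to 33.3%) in 40S 1. In CDS share it had 19.8% in eIF3b-bound against 55.5% in 40S 1. EIF6, which keeps the large subunit from joining, had a CDS share of 63.4% in the eIF3b-bound library, against 64.2% in 40S 1, with an interval that included 0 (-0.68 to 0.59). EIF1AX, which promotes scanning, had a start share of 7.13% in eIF3b-bound against 11.3% in 40S 1.

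Stress mRNAs controlled by upstream open reading frames had 2 of 6 genes at least 2-fold lower in start odds and 4 of 5 in CDS odds. ATF4, the transcription factor of the integrated stress response, had 2482 leader, 24 start and 124 coding footprints in the eIF3b-bound library, against 896, 9 and 450 in 40S 1. Its start share was 0.958% on eIF3b-bound subunits (0.615 to 1.42%) and 0.994% in 40S 1 (0.456 to 1.88%), a log2 odds ratio of -0.10 (-1.19 to 0.98). Its CDS share was 83.8% (76.8 to 89.3%) in eIF3b-bound against 98% (96.3 to 99.1%) in 40S 1, a log2 odds ratio of -3.22 (-4.34 to -2.10). The leader held over 99% of leader plus start footprints in both libraries, and a difference in the start balance was not detectable at this depth. ODC1, which makes polyamines, had start shares of 1.95% in eIF3b-bound against 5.77% in 40S 1. AZIN1, the inhibitor of ODC1's antizyme, had 2 start and 527 leader footprints in the eIF3b-bound library, against 3 start and 98 leader footprints in 40S 1.

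All 15 chaperones, all 15 cytoskeleton genes and all 8 glycolytic enzymes with an odds ratio had CDS odds at least 2-fold lower, with medians of -2.30, -1.82 and -1.64. In start odds 8 of 15, 9 of 13 and 6 of 7 were at least 2-fold lower. GAPDH had a CDS share of 12.3% (11.2 to 13.5%) in the eIF3b-bound library, against 56.25% (53.8 to 58.7%) in 40S 1, but a start share of 46.8% (45.5 to 48.1%) in eIF3b-bound against 50.5% (47.8 to 53.2%) in 40S 1. The start log2 odds ratio of GAPDH, -0.21 (-0.38 to -0.04), was the nearest to 0 of the glycolytic enzymes, and its CDS log2 odds ratio of -3.19 the lowest. ENO1 had start shares of 15.4% in eIF3b-bound against 28.2% in 40S 1, and LDHB of 27.2% in eIF3b-bound against 45.1% in 40S 1. HSPA1A, an inducible HSP70, had a start share of 6.58% in the eIF3b-bound library, against 13% in 40S 1, and its near-identical copy HSPA1B had 5.38% in eIF3b-bound against 11.5% in 40S 1. HSP90AB1 had 15.5% in eIF3b-bound against 34% in 40S 1, and TUBB, a tubulin with close paralogs, had 4.67% in eIF3b-bound against 12.75% in 40S 1. Tubulin TUBA1B had a CDS share of 17.4% in eIF3b-bound against 50.7% in 40S 1.

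The hnRNP and SR proteins, which process pre-mRNA, had 18 of 20 genes at least 2-fold lower in CDS odds, with a median of -2.39, and 9 of 18 in start odds, where 1 was higher. HNRNPA1 had a CDS share of 31.5% (27.8 to 35.4%) in the eIF3b-bound library, against 67.8% (64 to 71.5%) in 40S 1. SRSF9, an SR protein, had 81.2% in eIF3b-bound against 85% in 40S 1, with an interval that included 0. Cell cycle genes had 16 of 21 at least 2-fold lower in CDS odds, with a median of -2.41, and 10 of 19 in start odds, and 1 was higher in each. PCNA, the sliding clamp of replication, had a start share of 9.71% (8.39 to 11.2%) in the eIF3b-bound library, against 25.1% (20.8 to 29.9%) in 40S 1. Secretory pathway genes had 17 of 21 at least 2-fold lower in CDS odds and 11 of 17 in start odds, where 2 were higher. SEC61B, of the translocation channel, had a start share of 51.1% in eIF3b-bound against 76.5% in 40S 1, and a CDS share of 13.9% in eIF3b-bound against 52.9% in 40S 1.

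Nuclear oxidative phosphorylation genes were at least 2-fold lower in start odds in 14 of 35 cases and higher in 1, with a median of -0.84, and in CDS odds in 29 of 36, with a median of -1.45. UQCRH, of complex III, had a start share of 19.4% (18 to 20.9%) in the eIF3b-bound library, against 30.1% (26.6 to 33.8%) in 40S 1. ATP5MC3, of ATP synthase, had 26.9% in eIF3b-bound against 51.1% in 40S 1, while ATP5F1E of the same enzyme had a CDS share of 48.3% in eIF3b-bound against 49.6% in 40S 1. Mitochondrial ribosomal proteins were at least 2-fold lower in start odds in 9 of 25 and higher in 3, with a median of -0.72, and lower in CDS odds in 26 of 36. MRPL18 had a CDS share of 78.8% in the eIF3b-bound library, against 79.4% in 40S 1. Aminoacyl-tRNA synthetases had a start median of -0.12, with 3 of 7 at least 2-fold lower, and a CDS median of -2.44, with 8 of 11 lower and 1 higher. VARS1 had 19 start footprints of 253 in the eIF3b-bound library, against 2 of 55 in 40S 1. ZNF genes had a start median of -0.03, with 3 of 10 at least 2-fold lower and 3 higher, and 7 of 12 lower and 2 higher in CDS odds. Solute carriers were at least 2-fold lower in start odds in 6 of 13 and higher in 3, with a median of -0.73, and in CDS odds lower in 10 of 14 and higher in 1. Proteasome subunits were lower in start odds in 8 of 13, with a median of -1.49, and in CDS odds in 14 of 18, with none higher, and PSMB2 had start shares of 23.6% in eIF3b-bound against 46.4% in 40S 1. Immediate early and similar transcription factors were at least 2-fold lower in start odds in 5 of 10 and higher in 2, with a median of -0.95, and lower in CDS odds in 5 of 6, and JUN had start shares of 4.79% in eIF3b-bound against 12.7% in 40S 1.

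Replication-dependent histones, whose mRNAs end in a stem-loop and not in a poly(A) tail, had a median start share of 99.6% in the eIF3b-bound library, against 99.8% in 40S 1. Of 49 member genes 26 were measured for the start balance and 13 of these had no leader footprint in either library. Of the 13 with an odds ratio, 12 were at least 2-fold lower and 1 at least 2-fold higher. In CDS odds 36 of 45 were at least 2-fold lower and 3 at least 2-fold higher, with a median of -1.55. H2BC12L had 1957 leader and 2285 start footprints in the eIF3b-bound library, against 188 and 748 in 40S 1, which gave start shares of 53.9% (52.4 to 55.4%) in eIF3b-bound against 79.9% (77.2 to 82.4%) in 40S 1. H4C15 had a start share of 90.2% in eIF3b-bound against 97.2% in 40S 1, and a CDS share of 25.7% in eIF3b-bound against 30.2% in 40S 1. H4C3 had no leader footprint in either library and a CDS share of 26.8% in eIF3b-bound against 44.8% in 40S 1. Histone coding sequences are near-identical within a class, so reads of single genes are uncertain.

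Mitochondrially encoded mRNAs are read by ribosomes inside mitochondria that do not use eIF3. The 7 genes summed to 3258 footprints in the eIF3b-bound library, against 72609 in 40S 1. They had no leader footprint in either library, so no start odds ratio was given, and their CDS odds were at least 2-fold lower in 1 and higher in 1 of 4 genes, with a median log2 odds ratio of 0.52. Both of these 2-fold differences were within counting error. No CDS interval lay below 0, and the only 1 above 0 was that of MT-CO1, whose odds were under 2-fold higher. MT-CO1, a subunit of cytochrome c oxidase, had 44 start and 668 coding footprints in the eIF3b-bound library, against 1288 and 12576 in 40S 1. Its CDS share was 93.8% (91.8 to 95.5%) in eIF3b-bound against 90.7% (90.2 to 91.2%) in 40S 1, a log2 odds ratio of 0.62 (0.18 to 1.07). MT-ATP6 had no start footprint among 634 in the eIF3b-bound library, against 201 among 17244 in 40S 1. MT-CO2, another subunit of that oxidase, had all of its footprints of these areas in the coding sequence in both libraries, 834 in eIF3b-bound and 16439 in 40S 1.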

How the data were processed

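The deposited table holds counts of footprints, whole numbers for each gene and each of 5 transcript areas, for both libraries per the file headers. The deposited 40S metagene files hold counts of 5′ ends by position and length. The submitters' processing notes name CASAVA 1.8, TopHat2 2.1.0, Bowtie2 2.2.6, Bowtie 1.2.2 and genome build GRCh38, with no role for each. How footprints were assigned to areas and to genes that share sequence is not given in the sources used here. Shares were computed per gene from at least 20 counts in each denominator, with exact Clopper-Pearson 95% intervals (scipy 1.17.1). Log2 odds ratios had 0.5 added to each count and a Woolf interval. No source used here mentions molecular identifiers, so reads may not be independent molecules. No odds ratio was given where an area was empty in both libraries, a choice made after seeing the data. Genes were named by the 8 highest and 8 lowest intervals per balance with at least 100 counts in each denominator, the 3 deepest measured members of each of 22 lists, and ATF4. In a list, counts are read against the share over all genes. Members and lists were chosen with earlier results of these data known. Gene coordinates and starts came from RefSeq GRCh38.p14 by symbol, and the steps were tested on simulated data. Of the genes named by these rules, 2 are not reported here.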

Additional observations from a re-analysis of the deposited data

How the results depend on the processing

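No paired analysis was possible because the 2 libraries compared have 1 sample each. With the same areas, the median log2 odds ratios kept their sign under every alternative tried. Start shares gave 303 lower and 20 higher genes (at least 2-fold) with 50 counts per denominator, 256 and 10 with 200 summed counts, 125 higher with 10 counts, 169 higher with 1 count and 39 higher with leader, start and coding sequence all counted in each library. CDS shares gave 642 and 21, 399 and 5, 127 higher with 1 count and 28 higher with those 3 areas counted. These thresholds, and the areas in a denominator, change how many genes enter, so the counts alone do not show a changed share. With the coding sequence in the start share's denominator the median was 0.33, with 353 lower and 602 higher, and with the leader in place of the start area the CDS median was -3.09, with 30 higher. That first change also turned the sign for H2BC8 (0.34), RPLP2 (0.29), RPL13 (0.75), HNRNPA1 (0.12), EEF1B2 (0.32), EEF1G (1.72), MRPL3 (0.15), H4C15 (0.0165), PSMB1 (0.59), ACTB (0.15), EIF3I (0.59), EIF3M (1.498), EIF3C (0.29), GAPDH (0.83), SEC61B (0.35) and SLC25A5 (0.0189). It counts other areas, so it answers another question. The wider metagene window gave 20.8% in 40S 1 and 20.7% in 40S 2. Keeping areas empty in both libraries, and setting an area empty in 1 library to 3 counts, were chosen after seeing the data and left the medians and counts within 1.5 times.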
